A study of Mus musculus with 8 samples.

Results

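The genes described here carry out osteoclast fusion and bone resorption: Dcstamp, Ocstamp and Atp6v0d2, which act in the fusion of precursors, the receptors Tnfrsf11a and Oscar, the transcription factor Nfatc1, the differentiation marker Calcr, the integrin subunit Itgb3, and the enzymes Acp5 and Ctsk. They were taken by symbol, with every probe that the array has for them. This gave 10 genes of 19057 with a probe, and 17 probes of 45281. The genes were chosen with earlier results of these data known. A probe counted as above background where its detection p-value, set from the negative controls of the array, was under 0.05. On at least 2 of the 8 arrays 11 of the 17 probes passed this limit, so that 6 of the 10 genes could be tested and 4 could not.

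The cells were macrophages of C57BL/6 mice, grown from bone marrow with the growth factor M-CSF for 7 days (BMDMs). There were 4 groups of 2 arrays: untreated cells, cells given 1 µM all-trans retinoic acid (ATRA), the vitamin A metabolite that activates retinoic acid receptors, cells given supernatant of cultured omentum (OMsup), and cells given both (ATRA+OMsup). The stimuli acted for 24 h in a macrophage medium without serum, and the labels name no RANKL in any group. Whether the untreated cells were also moved to this medium is not stated in the labels, so in every difference from untreated cells the stimulus and the change of medium cannot be told apart. The labels do not say whether the 2 arrays of a group came from separate cultures or animals, so the p-values measure the spread between these arrays, which may be technical. In bulk RNA, fewer cells of a type and less RNA per cell cannot be told apart.

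Osteoclasts arise when precursors of the monocyte and macrophage lineage receive M-CSF and RANKL. RANKL binds RANK, the product of Tnfrsf11a, and with co-stimulation through receptors that signal by ITAM motifs, such as OSCAR, it induces NFATc1, which switches on the genes for fusion, attachment, acid secretion and collagen breakdown. BMDMs grown with M-CSF are the usual starting cells for osteoclast cultures and are not osteoclasts themselves.

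Of the macrophage markers with a probe, 6 of 6 were above background on every array, and their summed level lay between 14.65 and 14.81 (log2) in all groups, a sum carried mostly by Lyz2. Single markers rose within it: Mertk by 1.13 with ATRA (adjusted p = 0.00619) and 0.97 with both, and Itgam by 1.49 (0.00100) and Fcgr1 by 0.78 (0.00334) with both. On each array 16116 to 16784 probes were above background, and arrays of a group correlated at 0.993 to 0.995. Of the osteoblast and stromal markers, Bglap, Bglap2, Col1a1, Col1a2 and Sp7 were above background on no array, and Alpl, Pdgfra and Dcn on 6, 2 and 3. Of the megakaryocyte and platelet markers, Gp1bb was above background on no array, Itga2b on 1 and Gp9 on 3. The differences of Gp9 from untreated cells were 0.14 with ATRA, 0.15 with OMsup and 0.05 with both, and none passed. The summed level of this list was 7.61 to 7.97 in untreated cells, 8.59 to 8.83 with ATRA, 10.53 to 11.02 with OMsup and 13.14 to 13.41 with both, through the chemokine genes Pf4 and Ppbp. The granulocyte list, 5 of 6 of it above background on every array, summed to 10.35 to 10.71 in untreated cells, 9.66 to 9.86 with ATRA, 10.75 to 11.03 with OMsup and 10.36 to 10.62 with both. With ATRA all 6 members of this list were lower, by 0.19 (Ngp) to 0.86 (S100a8), and only S100a8 passed (adjusted p = 0.0353). With OMsup they did not move as 1: Mpo rose by 0.89 (0.0110), Camp was at least 1.47-fold lower (0.00835) and Ngp fell by 0.69 (0.0391). The part of these cells in the results below was not tested. No T and NK cell marker was above background on more than 1 array, the dendritic list had at most 2 members above background on an array, and the 5 mesothelial and adipocyte markers with a probe had none. Of the B cell markers, Cd79b was above background on all 8 arrays and Ms4a1 and Pax5 on none.

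The promoters of 5 members were held in the RefSeq table for GRCm38.p6. Those of Tnfrsf11a and Ctsk are shown because, of those 5, these are the ones with called differences. Each runs from 250 bases before to 50 after the gene's start on the plus strand, in lower case. Capitals mark matches to 5 motifs searched on both strands. These were TGANTCA (AP-1), GGAAA (NFAT), GAGGAA (PU.1), TCATGTG (M-box) and AGGTCA (the half-site of retinoic acid receptors).
Tnfrsf11a (chr1:105780473-105780772): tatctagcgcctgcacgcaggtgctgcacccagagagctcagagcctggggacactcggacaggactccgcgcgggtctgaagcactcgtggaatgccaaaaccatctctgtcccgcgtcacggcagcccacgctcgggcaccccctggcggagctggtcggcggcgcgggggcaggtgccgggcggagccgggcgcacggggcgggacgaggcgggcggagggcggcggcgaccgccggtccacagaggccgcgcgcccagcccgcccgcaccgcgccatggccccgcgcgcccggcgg
Ctsk (chr3:95498960-95499259): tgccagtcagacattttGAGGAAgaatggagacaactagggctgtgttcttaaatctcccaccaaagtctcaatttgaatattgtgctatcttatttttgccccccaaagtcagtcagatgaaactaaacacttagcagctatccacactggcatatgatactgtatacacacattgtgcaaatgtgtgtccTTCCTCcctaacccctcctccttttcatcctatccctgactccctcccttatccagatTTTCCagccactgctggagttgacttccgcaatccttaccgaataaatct

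The Ctsk window held GAGGAA at -233 to -228 and, on the opposite strand, at -58 to -53, and GGAAA on the opposite strand at 1 to 5 from the start. The window of Tnfrsf11a held no match to any of the 5, and neither window held AGGTCA. Of 32851 promoter windows of this length, 28.3% held GAGGAA, 61.3% GGAAA, 16.3% AGGTCA, 7.81% TGANTCA and 3.77% TCATGTG. The PU.1 and NFAT letters can overlap. A match is a description of the letters and not a binding site.

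Dcstamp, which encodes the membrane protein DC-STAMP that precursors need in order to fuse, was highest in untreated cells and lower in every treated group. Its deposited intensity was 180 and 164 in untreated cells, 111 and 121 with ATRA, 92.0 and 98.7 with OMsup and 88.7 and 92.3 with both. On the normalized log2 scale these values became 6.78 and 6.38, 4.92 and 5.20, 4.28 and 4.71, and 4.20 and 4.26. Both untreated arrays lay above all 6 treated arrays. No pair of groups overlapped on the normalized scale. In deposited intensity OMsup and ATRA+OMsup overlapped, at 92.0 and 92.3, on readings that were both not above background. The probe was above background on both untreated and both ATRA arrays, on 1 of 2 OMsup arrays and on neither array with both stimuli.

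Against untreated cells, Dcstamp was lower with ATRA, by a log2 difference of -1.52 (SE 0.201, limma adjusted p = 0.00173), which is 2.86-fold. With OMsup the difference was -2.09 (SE 0.201, adjusted p = 7.86e-05), or 4.25-fold. As in every difference from untreated cells, the stimulus and a change of medium cannot be told apart here. With both stimuli the probe had only an upper bound, and Dcstamp was at least 3.96-fold lower than in untreated cells (adjusted p = 2.11e-05). Such a bound sets the brighter group's mean against the lowest signal that was above background on the dim arrays. These sizes rest on the background correction. Without it the log2 differences were -0.65, -0.83 and -0.93, and all 3 still passed the test.

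**Figure D1:**
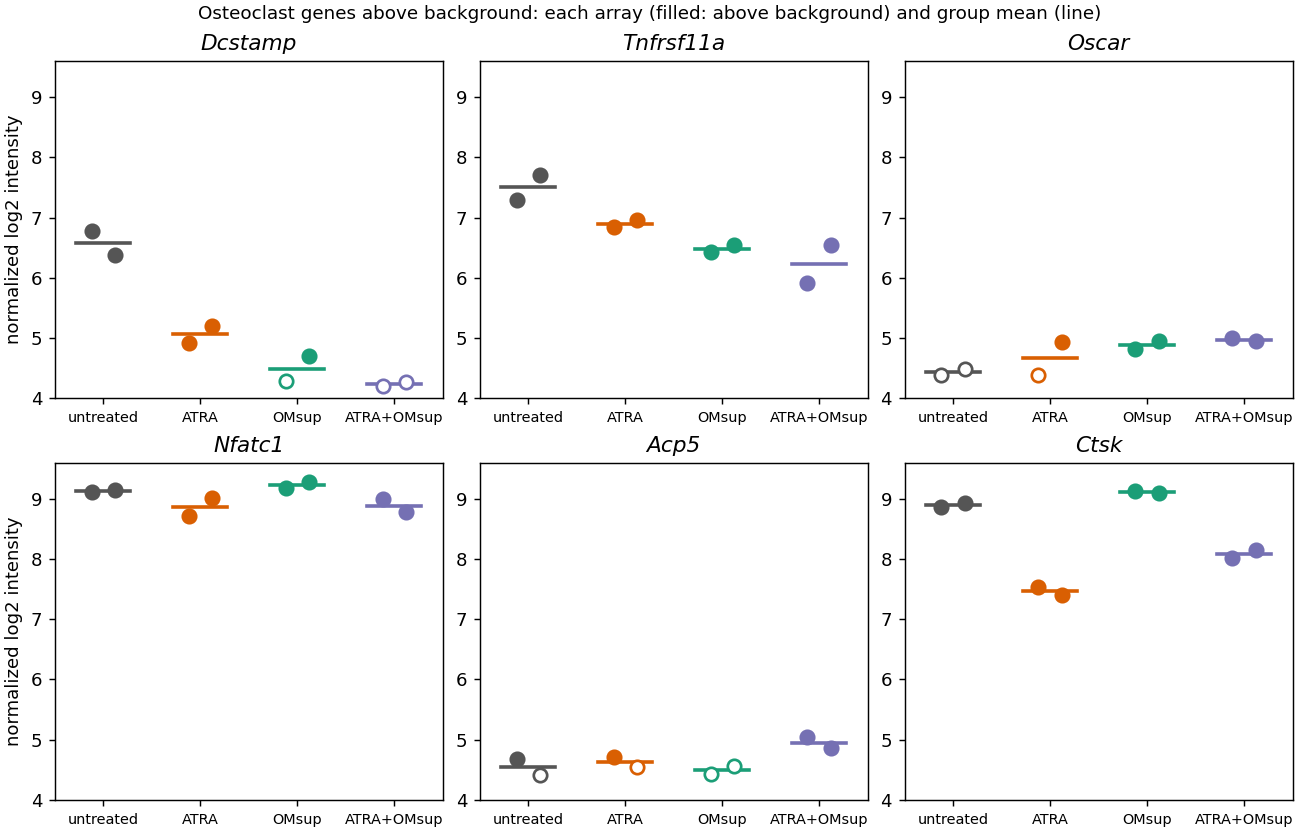
Normalized log2 intensity (vertical axis) of the 6 tested genes by group, with 1 point per array, filled where the probe was above background, and a line at the mean of the 2 arrays. Dcstamp is highest on the untreated arrays and at 4.20 and 4.26 with both stimuli, while Ctsk is lowest with ATRA, at 7.53 and 7.40.

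Adding OMsup to ATRA lowered Dcstamp further, by at least 1.38-fold (adjusted p = 0.0225), or by -0.28 on the log2 scale without background correction. That call ended without the second ATRA array (adjusted p = 0.184), and without the first (0.0939) or second (0.0761) array given both. Adding ATRA to OMsup gave a log2 difference of -0.26 (95% interval -0.71 to 0.18, adjusted p = 0.694), with the probe above background on 1 of these 4 arrays. The effect of ATRA with OMsup minus that without it was 1.26 (SE 0.285), with an unadjusted p of 0.00114 and an adjusted p of 0.195 over all features. With OMsup the probe was above background on 1 of these 4 arrays, so the ATRA effect there was bounded by the background, and the sign, size and p of this term cannot be read as a difference in response. OMsup against ATRA gave -0.57 (adjusted p = 0.0987), and -0.66 (adjusted p = 0.0335) where arrays were only scaled to a common median.

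The other fusion genes of the group gave no measurable level. Ocstamp, which encodes the related protein OC-STAMP, was above background on 0 of 8 arrays, with intensities of 88.8 to 98.8 and a lowest detection p of 0.0716. Atp6v0d2, a subunit of the vacuolar proton pump that also acts in fusion, was above background on 0 of 8 arrays, with intensities of 88.5 to 94.0 and a lowest detection p of 0.406. For these genes a level below the limit of the array is all that was measured.

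Tnfrsf11a, which encodes RANK, the receptor through which RANKL acts on precursors, was lower with OMsup. Its normalized log2 values were 7.29 and 7.71 in untreated cells, 6.84 and 6.96 with ATRA, 6.43 and 6.54 with OMsup and 5.92 and 6.55 with both. The probe was above background on all 8 arrays. Every treated array lay below both untreated arrays, and the groups OMsup and ATRA+OMsup overlapped.

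With OMsup Tnfrsf11a was lower than in untreated cells, by a log2 difference of -1.02 (SE 0.226, adjusted p = 0.0160), or 2.03-fold. With both stimuli the difference was -1.27 (adjusted p = 0.00300), or 2.41-fold. Without background correction these were -0.64 and -0.76. The OMsup call ended without the second untreated array (-0.81, adjusted p = 0.154), without the first OMsup array (-0.96, 0.0825) and without the second (-1.07, 0.0601). With ATRA alone the difference was -0.60 (95% interval -1.11 to -0.10, adjusted p = 0.233) and did not pass. ATRA+OMsup against ATRA gave -0.66 (adjusted p = 0.103). This passed where arrays were scaled to a common median (-0.82, adjusted p = 0.0435) and with a block by replicate number (adjusted p = 0.0189). Without the second array given both, the difference was -0.98. The interaction was 0.36 (95% interval -0.35 to 1.06).

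Tnfsf11 and Tnfrsf11b, the genes for RANKL and its decoy receptor OPG, were singled out after their values were seen because they belong to the same axis. Tnfsf11 was above background on 2 arrays and passed no comparison, with a log2 difference of 0.44 with ATRA (adjusted p = 0.354). Tnfrsf11b was above background on 0 arrays.

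Oscar, the co-stimulatory receptor that signals through the ITAM of the FcR gamma chain, stood close to background throughout. Its normalized log2 values were 4.39 and 4.48 in untreated cells, 4.39 and 4.94 with ATRA, 4.82 and 4.96 with OMsup and 5.00 and 4.95 with both. Neither untreated array was above background, 1 of 2 ATRA arrays was, and all 4 arrays with OMsup were. The differences from untreated cells were 0.23 (adjusted p = 0.705) with ATRA, 0.45 (0.190) with OMsup and 0.53 (0.0806) with both, and none passed.

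Nfatc1, the transcription factor that directs the osteoclast programme, did not pass in any comparison on any of its 6 probes. Of these, the 3 annotated to 1 RefSeq transcript were above background on all 8 arrays, and the 3 annotated to another were above background on 5, 2 and 2 arrays. The tested probe read 9.12 and 9.15 in untreated cells, 8.72 and 9.02 with ATRA, 9.19 and 9.28 with OMsup and 8.996 and 8.78 with both. The differences from untreated cells were -0.27 with ATRA (95% interval -0.60 to 0.07, adjusted p = 0.520), 0.10 with OMsup (-0.23 to 0.43, 0.789) and -0.25 with both (-0.58 to 0.09, 0.339). These intervals hold no change as large as the fall of Dcstamp in the same comparisons, and they do not show that Nfatc1 was equal between groups.

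Ctsk, the cysteine protease cathepsin K that cleaves collagen in the resorption pit, fell with ATRA and with both stimuli, and its difference with OMsup alone did not pass. Its normalized log2 values were 8.87 and 8.93 in untreated cells, 7.53 and 7.40 with ATRA, 9.13 and 9.09 with OMsup and 8.02 and 8.15 with both. It was above background on all 8 arrays. The 4 groups did not overlap, with ATRA lowest, both stimuli next, then untreated cells, and OMsup highest.

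With ATRA Ctsk was lower than in untreated cells, by a log2 difference of -1.43 (SE 0.140, adjusted p = 0.000212), which is 2.70-fold. With both stimuli it was lowered by -0.82 (SE 0.140, adjusted p = 0.00232), or 1.76-fold, from untreated cells, and by -1.03 (adjusted p = 0.00155), or 2.04-fold, from OMsup alone. OMsup alone gave 0.21 (95% interval -0.10 to 0.52, adjusted p = 0.452), and did not pass, so that in the order of the groups these neighbours were not told apart by the fit. The 2 single stimuli differed from each other by 1.65 (SE 0.140, adjusted p = 2.19e-05), with Ctsk 3.13-fold higher under OMsup than under ATRA.

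Ctsk was 1.53-fold higher with both stimuli than with ATRA alone (log2 difference 0.62, adjusted p = 0.0156). That call ended under a common median (0.48, adjusted p = 0.123) and in a fit of only the arrays of these groups (adjusted p = 0.0564). It also ended without the first ATRA array (0.0653), without the second (0.152) and without the second array given both (0.0823). The interaction was 0.41 (95% interval -0.03 to 0.84) and did not pass, with an adjusted p of 1.00.

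Acp5, which encodes tartrate-resistant acid phosphatase, the enzyme stained for in osteoclast cultures, was near background. Its normalized log2 values were 4.68 and 4.41 in untreated cells, 4.71 and 4.55 with ATRA, 4.43 and 4.56 with OMsup and 5.04 and 4.85 with both. It was above background on 1 untreated array, 1 ATRA array, neither OMsup array and both arrays with both stimuli. The highest difference from untreated cells was 0.40 with both (95% interval 0.05 to 0.75, adjusted p = 0.126).

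Calcr, the calcitonin receptor of mature osteoclasts, was above background on none of the 24 readings of its 3 probes, with intensities of 82.7 to 93.6. Itgb3, the integrin chain that pairs with Itgav to attach osteoclasts to bone, was above background on 1 of 8 arrays, the first with OMsup, at a detection p of 0.0417, and its intensities ran from 89.5 to 103. Neither gene was tested.

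**Figure D2:**
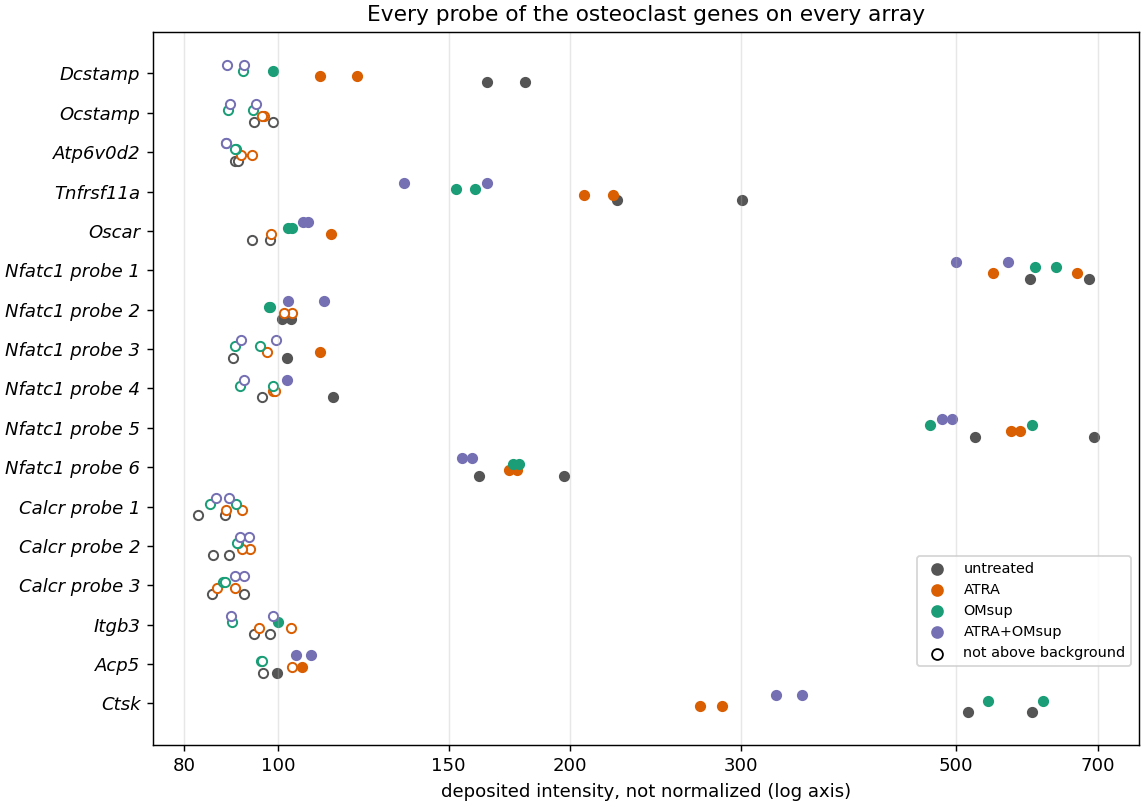
Deposited intensity before normalization (log axis) of each of the 17 probes on the 8 arrays, coloured by group, with open points where the probe was not above background. Calcr, Atp6v0d2 and Ocstamp are open on every array, while Ctsk and Tnfrsf11a are filled on every array.

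Counted over the 6 tested genes, 2 fell with ATRA (Dcstamp and Ctsk), 2 fell with OMsup (Dcstamp and Tnfrsf11a) and 3 fell with both (Dcstamp, Tnfrsf11a and Ctsk), and none rose in these comparisons. Over the 12793 features tested, 4.06% were called with ATRA, 1.72% of them all as lower. The same shares were 9.36% and 4.67% with OMsup, and 15.1% and 7.26% with both. Against ATRA alone, both stimuli gave 1 member higher (Ctsk) and 1 lower (Dcstamp), where 10.4% of all features were called, 4.98% as higher and 5.42% as lower. Against OMsup alone they gave 1 lower (Ctsk), where 4.49% were called, 1.77% as lower. OMsup against ATRA gave 1 higher (Ctsk), where 13.4% were called, 6.25% as higher. The interaction gave 0 of 6, where 0.242% were called. In the limma fit of the interaction 1 member, Dcstamp, was under an unadjusted p of 0.05, as were 670 of the 12793 features. Of the 11 called differences, 8 held under every alternative tried and none reversed. The comparisons with untreated cells share the same 2 control arrays.

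**Figure D3:**
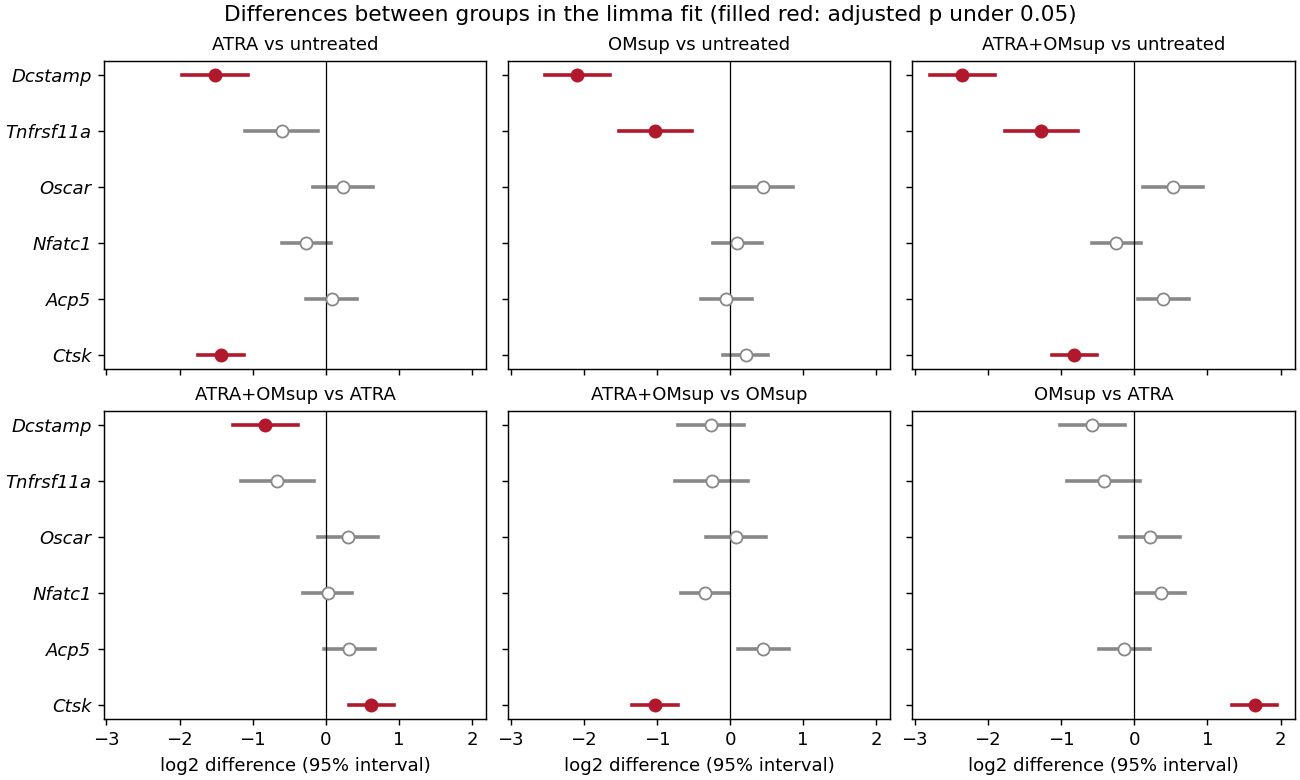
Difference in normalized log2 intensity (horizontal axis) of the 6 tested genes in 6 comparisons, with 95% intervals from the limma fit and filled red points where the adjusted p was under 0.05. Ctsk lies at -1.43 with ATRA and 0.21 with OMsup, while Tnfrsf11a lies at -0.60 and -1.02, and the Dcstamp points with both stimuli are fitted values of a probe that was not above background there.

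Over the 8 arrays, the named genes with values most like those of Dcstamp were Slc30a1 (Pearson r 0.995), Lxn (0.982) and Spn (0.982). Those most like Tnfrsf11a were Nol12 (0.978), Trpt1 (0.975) and Snx19 (0.972), and those most like Ctsk were Trim16 (0.982), Mfap3l (0.978) and Clec4a3 (0.972). The arrays lie in 4 groups, so these values describe the pattern of group means and were not tested.

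A further 100 genes of osteoclast biology in 8 lists, 93 with a probe and 85 tested, were set beside the members. With ATRA 4 rose and 8 fell (14.1% of the 85), with OMsup 7 rose and 8 fell (17.6%), and with both 11 rose and 20 fell (36.5%). The lists were chosen with earlier results of these data known, so these shares describe the lists and do not test them. Over all 12793 features the called shares were 4.06%, 9.36% and 15.1%. Without 1 array at a time these totals were 1 to 4 with ATRA, 12 to 13 with OMsup and 19 to 32 with both. Every ATRA call named below except that of Mmp9 ended without at least 1 of the arrays. As with Dcstamp, differences of genes near background were smaller without background correction, and those values are given beside the genes they moved most. Where a call ended, the highest adjusted p over its alternatives is given, with the array left out to reach it. That of Cd200 with OMsup is not given.

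Among 9 genes of RANK and M-CSF receptor signalling none passed in the 3 comparisons, with medians of -0.14 with ATRA, 0.07 with OMsup and 0.08 with both, where the median of all features was 0.01, -0.00 and -0.01. Traf6, the adaptor that binds RANK, gave 0.43 with both (adjusted p = 0.131), and 0.62 and -0.24 on its other probes, both above background on all 8 arrays, and Nfkb2 of the alternative NF-kB pathway gave 0.71 (adjusted p = 0.0622).

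Of 13 genes of ITAM co-receptors and calcium signalling, 1 fell with ATRA, 1 rose and 1 fell with OMsup, and 1 rose and 3 fell with both. Blnk, the adaptor between Syk and PLC gamma, fell by 1.09 on the log2 scale with OMsup (adjusted p = 0.000449) and by 0.75 with both (0.00313). Sirpb1a rose by 2.58 with OMsup (adjusted p = 8.61e-06) and by 2.11 with both, and fell by 0.95 with ATRA, a call that ended without the first untreated array (adjusted p = 0.134). Sirpb1a has near-identical paralogs, so its probe may read more than 1 gene. Tyrobp, the ITAM adaptor DAP12, and the kinase gene Tec fell with both, by 0.50 and 0.52. These calls ended without the first (adjusted p = 0.129) and the second untreated array (adjusted p = 0.286). The medians were 0.00, -0.12 and -0.15.

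Of 12 osteoclast transcription factors, 1 rose and 3 fell with ATRA, 1 rose and 1 fell with OMsup, and 2 rose and 2 fell with both, with medians of -0.24, -0.30 and -0.45. Pparg, a nuclear receptor that promotes osteoclast formation in mice, read 10.50 and 10.79 in untreated cells, 9.85 and 9.96 with ATRA, 7.94 and 7.77 with OMsup and 7.34 and 7.21 with both. Its fall was 6.91-fold with OMsup and 10.3-fold with both (adjusted p = 3.00e-07), and its second probe fell as well. Its fall of 0.74 with ATRA ended without the second untreated array (adjusted p = 0.207). Jdp2, an AP-1 family gene needed for osteoclast formation in mice, read 5.53 and 5.33 untreated, 6.67 and 6.42 with ATRA, 5.79 and 5.66 with OMsup and 7.04 and 6.98 with both. The 4 arrays with ATRA thus lay above the 4 without it, and the rise with both was 3.00-fold (adjusted p = 0.000104), or 0.78 on the log2 scale without background correction. The rise with ATRA alone, 2.16-fold, ended without the first ATRA array (adjusted p = 0.0574).

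Fosl2, the AP-1 subunit Fra-2, rose by 2.16 on the log2 scale with OMsup and by 1.58 with both, on a probe above background on all 8 arrays. A second probe was above background on 3 of 8, too few to bear on this, and the mean of both probes gave 1.06 and 0.80. Fos, the AP-1 subunit without which mice form no osteoclasts, fell by 1.01 with ATRA (adjusted p = 0.0193) and by 1.00 with both (0.00683), and these calls ended without the second ATRA (adjusted p = 0.153) and the second untreated array (0.0521).

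Of 9 genes listed as inhibitors of osteoclast formation, 1 rose and 1 fell with ATRA and with OMsup. With both, 2 rose and 2 fell, and the medians over the 3 comparisons were -0.08, 0.07 and -0.03. The 1 that rose with OMsup was Socs3, whose effect on osteoclast formation was not tested. Irf8, a repressor of NFATc1, read 8.38 and 8.40 in untreated cells, 9.18 and 9.001 with ATRA, 8.34 and 8.18 with OMsup and 9.23 and 8.99 with both. It was higher on all 4 arrays with ATRA than on the 4 without, by 1.65-fold with both stimuli against untreated cells (adjusted p = 0.00691). The rise with ATRA alone, 1.63-fold, ended without the first ATRA array (adjusted p = 0.238). Socs3, an inhibitor of cytokine receptor signalling, rose by 5.35 with OMsup and by 4.93 with both, or 4.21 and 3.81 without background correction, and fell by 0.72 with ATRA, a call that ended without background correction (adjusted p = 0.369). Tnfaip3, a brake on NF-kB, fell by 1.09 with OMsup and 0.84 with both, and Il10 fell by 0.71 with both. These 3 calls ended, those of Tnfaip3 without the first untreated array (adjusted p = 0.106 and 0.231) and that of Il10 without the first array given both (0.0876).

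Of 11 further genes of cell fusion, 1 rose and 1 fell with ATRA, 3 fell with OMsup, and 1 rose and 5 fell with both, with medians of -0.33, -0.05 and -0.58. Cd9, a tetraspanin with a role in cell fusion, read 12.42 and 12.61 untreated, 11.98 and 12.24 with ATRA, 12.08 and 11.79 with OMsup and 11.58 and 11.30 with both. It fell 2.10-fold with both (adjusted p = 0.000544), and its OMsup call of 1.49-fold ended without the second untreated array (adjusted p = 0.243). Myo10, a myosin of filopodia, fell 2.61-fold with OMsup, where 1 of 2 arrays was above background, and at least 2.73-fold with both. Without background correction its log2 differences were -0.50 and -0.61. Cd200 was at least 1.60-fold lower with both, on 1 probe of 2, the other being above background on 2 arrays. With OMsup alone Cd200 was called lower as well (fitted log2 difference -0.84, adjusted p = 0.00349), with neither OMsup array above background. That call ended under 1 of 13 alternatives. Ccl2, a chemokine gene, was not above background without ATRA and was at least 2.08-fold higher with both than in untreated cells (adjusted p = 0.000120), or by 0.45 on the log2 scale without background correction. With ATRA alone it was at least 1.42-fold higher, a call that ended without the second untreated array (adjusted p = 0.122).

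Of 13 genes of the proton pump, chloride and acid group, 1 fell with ATRA, 2 fell with OMsup and 3 fell with both, none rose, and the medians were 0.05, -0.13 and -0.10. Atp6v1b2, a subunit of the cytoplasmic part of the pump, read 12.53 and 12.62 untreated, 12.59 and 12.57 with ATRA, 11.94 and 11.70 with OMsup and 11.89 and 11.98 with both. It fell 1.68-fold with OMsup (adjusted p = 0.00170) and 1.56-fold with both (0.00281), while ATRA gave 0.01 (0.991). Slc9b2, a sodium and proton exchanger induced in osteoclasts, was at least 2.02-fold lower with both (adjusted p = 0.000165), with a log2 difference of -0.45 without background correction. Its falls with ATRA, 1.57-fold, and OMsup, 1.63-fold, ended without the first untreated array (adjusted p = 0.277 and 0.125). Atp6v1c1 fell by 0.52 with both, a call that also ended without it (0.0947).

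Of 9 genes of matrix-degrading enzymes and their inhibitors, 1 rose with ATRA, 4 rose with OMsup, and 5 rose and 2 fell with both, with medians of -0.08, 0.48 and 0.70. Mmp9, the gelatinase that osteoclasts secrete beside cathepsin K, read 5.47 and 5.60 untreated, 8.96 and 9.15 with ATRA, 4.88 and 5.48 with OMsup and 7.97 and 8.42 with both. Mmp9 was thus 11.5-fold higher with ATRA than in untreated cells (adjusted p = 2.80e-05), in the samples in which Ctsk was 2.70-fold lower. Without background correction its log2 difference was 2.31 in place of 3.52. Ctsl, the lysosomal protease cathepsin L, rose 4.25-fold with OMsup and 5.82-fold with both. Timp1, an inhibitor of matrix metalloproteinases, rose 4.99-fold and 3.75-fold. Without background correction the log2 differences were 1.39 and 1.76 for Ctsl and 1.25 and 0.97 for Timp1.

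Mmp14, a membrane-bound collagenase, read 6.35 and 6.37 untreated, 6.03 and 5.99 with ATRA, 8.99 and 9.01 with OMsup and 6.90 and 6.97 with both. It rose 6.23-fold with OMsup (adjusted p = 2.09e-06, log2 difference 1.89 without background correction) and 1.49-fold with both, a call that ended without the second untreated array (adjusted p = 0.107). It was the 1 gene of the 85 with a called interaction, at -1.71 (SE 0.213, adjusted p = 0.00580), and without the second ATRA array the adjusted p was 0.0513.

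Of 9 genes of attachment and the sealing zone, 1 fell with ATRA, 0 passed with OMsup and 3 fell with both, with medians of -0.51, -0.23 and -0.58. Ptk2b, the kinase Pyk2 of podosomes, fell by 0.79 on the log2 scale with both, Gsn, the actin-severing gelsolin, fell by 1.61, and Vav3, an exchange factor for Rac, fell by 0.72. A second Vav3 probe gave -0.25, and Pxn, the adaptor paxillin, fell by 0.64 with ATRA on 1 of its 2 probes. These 4 calls ended, that of Ptk2b without the second array given both (adjusted p = 0.109) and the others without the second untreated array (0.214 for Gsn, 0.112 for Vav3 and 0.324 for Pxn).

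**Figure D4:**
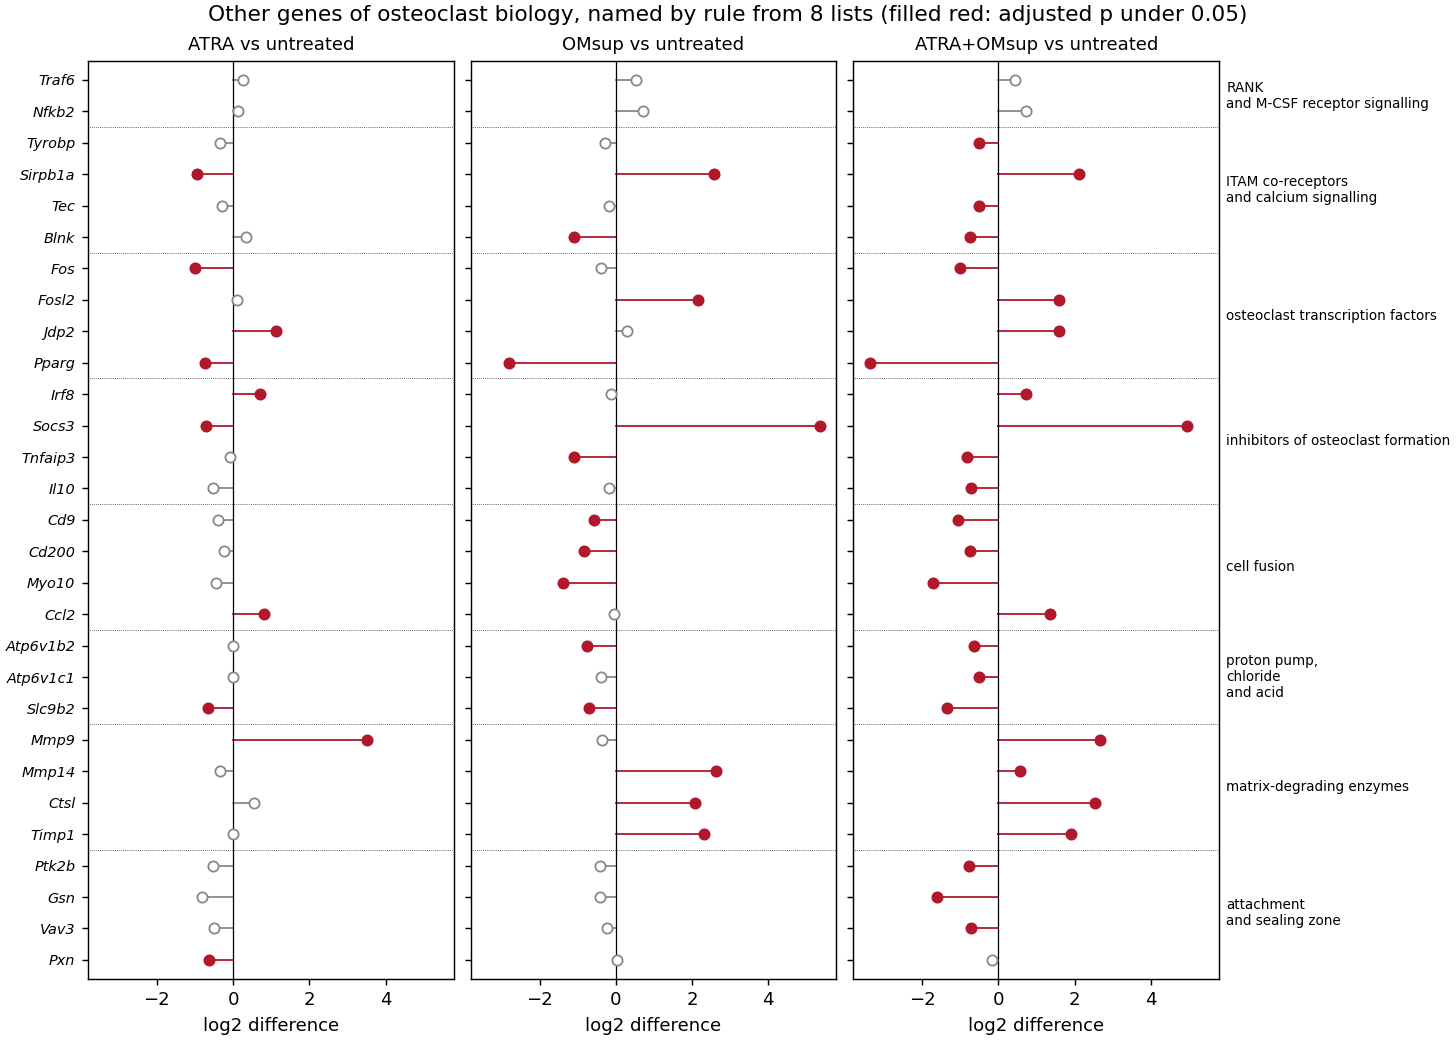
Difference in normalized log2 intensity from untreated cells (horizontal axis) of the 29 further osteoclast genes that the naming rule chose, in 3 comparisons, filled red where the adjusted p was under 0.05. Mmp9 stands at 3.52 with ATRA and -0.35 with OMsup, Mmp14 at -0.35 and 2.64, and points of dim probes such as Ccl2, Myo10, Cd200 and Slc9b2 are fitted values and not bounds.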

How the data were processed

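Per the labels, RNA was isolated on RNeasy micro columns with DNase, and biotin-labelled cRNA made with the MessageAmp kit was read on an Illumina mouse bead array in 1 colour. The deposited table holds, per probe and array, the authors' intensity on a linear scale without background subtraction, with array medians of 92.59 to 98.21, and a detection p-value, per the file headers. Which software made it is not stated per the labels. A deposited normalized table of intensity served as an alternative.

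Values were corrected and quantile-normalized with neqc (limma 3.58.1, R 4.3.3, offset 16, which recovers the negative controls through the detection p-values) and put on the log2 scale from the deposited intensity. Probes under a detection p of 0.05 on at least 2 arrays were kept, 18503 of 45281, and the brightest kept probe stood for a gene. The 8 arrays were fitted together (lmFit, eBayes with a trend), with Benjamini-Hochberg adjustment at 0.05 over 12793 features in each comparison, after a test on simulated data. Symbols came from the platform's probe table, in which 34885 probes have 1 symbol, 18 several and 10378 none. The number of arrays limits the precision, with a median SE of 0.171. No genome build is named for the array, so no probe positions are given.

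Replicate numbers were checked for pairing over 6 pairs of groups. Deviations of same-numbered arrays correlated at 0.43 to 0.53 between treated groups, and at -0.01 to 0.21 between untreated cells and a treated group. The labels do not say that replicate numbers pair samples, so the main fit had no block. The members and lists were chosen with earlier results of these data known. Named genes were all members and, per list, up to 4 with the largest difference among those that passed against untreated cells, or 2 where none passed. The OMsup against ATRA comparison was added after seeing the data. Alternatives were no background correction, a common median, the deposited normalized values, no or a stricter filter on dim probes (0.01), the mean over probes, no intensity trend, only the compared arrays, a replicate block and leaving out each array. Each kept probe on its own was an alternative added after seeing the data.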

Additional observations from a re-analysis of the deposited data

Results flagged for a closer look

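Mmp14 gave a called difference between the ATRA effect with and without OMsup, the interaction term of the limma fit, at -1.71 on the log2 scale (adjusted p = 0.00580, SE 0.213). ATRA gave -0.35 without OMsup and -2.06 with it, and Mmp14 was lower on both arrays with both stimuli than on both arrays with OMsup alone. Leaving out the second ATRA array moved the adjusted p to 0.0513, and the other alternatives gave 0.00103 to 0.0482. None of the 6 tested members passed this test.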

How the results depend on the processing

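No difference of a member or named list gene that passed in the main fit or an alternative changed sign between the 2. Differences that passed in neither were not held to this, and some changed sign. Oscar with ATRA, at 0.23 in the main fit, ran from -0.04 to 0.51 over the alternatives. With a replicate block the counts of called features were 924 for ATRA and 899 for ATRA+OMsup against OMsup, where the main values are 520 and 575, and 65 for the interaction, where it is 31, and the other osteoclast genes called in ATRA+OMsup against OMsup were 13 in place of 8. The labels do not say that replicate numbers pair the arrays, and deviations of the treated groups correlated at 0.43 to 0.53. When arrays were only brought to one median, 7 other osteoclast genes were called with ATRA in place of 12, and 2 members in OMsup against ATRA in place of 1. That scaling moved the median of all features by over 0.1 in OMsup against ATRA alone, to -0.13, and moved the share of called features that were higher from 57.7% to 68.5% with ATRA, from 47.9% to 37.7% in ATRA+OMsup against ATRA and from 46.8% to 30.7% in OMsup against ATRA. In a fit of only the compared arrays, 1 member was called in ATRA+OMsup against ATRA in place of 2. Oscar with both stimuli passed under the replicate block (adjusted p = 0.0430), as did Tnfrsf11a in ATRA+OMsup against ATRA (0.0189). The cause was not tested. A block by slide was not run, since the headers give no slide.

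Leaving out 1 array at a time, with a lone array assumed to vary like the other groups, gave 219 to 228 called features with ATRA, 613 to 832 with OMsup and 1114 to 1742 with both against untreated cells. It gave 674 to 1067 for both against ATRA, 321 to 425 for both against OMsup, 14 to 34 for the interaction and 1044 to 1242 for OMsup against ATRA. Members called were 1 to 2 with OMsup and 0 to 1 for both against ATRA, and did not move elsewhere. Other osteoclast genes called were 1 to 4 with ATRA, 12 to 13 with OMsup, 19 to 32 with both, 10 to 15 for both against ATRA, 6 to 9 for both against OMsup, 0 to 1 for the interaction and 17 to 20 for OMsup against ATRA. Of 50 called differences of the named other genes, 27 held under every alternative and 23 did not. Signal near background limits Oscar, Acp5, the treated groups of Dcstamp, Myo10 and Slc9b2, and Ccl2 without ATRA, and folds and bounds of such genes hold for the background correction used.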
